A study of Mus musculus with 24 samples.

Results

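The genes of the nuclear lamina were followed in hematopoietic stem cells (HSCs) of young and old mice. By name, 9 genes were chosen: the lamins *Lmna*, *Lmnb1* and *Lmnb2*, the lamin B receptor *Lbr*, the LEM-domain genes *Emd* and *Tmpo*, the SUN-domain genes *Sun1* and *Sun2*, and *Banf1*. Of these 9, 8 were among the 18762 genes of the table of normalized read counts, and *Sun2* was not analysed here. All 8 had a mean over all mice of at least 10 normalized read counts and so were among the 12354 genes tested. RNA-seq was performed on LSK-SLAM cells, a bone marrow fraction in which HSCs are enriched, sorted from WT C57BL/6 mice. The young group held 5 mice aged 4 to 5 months and the old group 7 mice aged 20 to 22 months by the labels, which name no treatment. The study text gives other ages, and those of the labels are used here. Each mouse gave 1 column of values, which counts as 1 sample. The cells are a bulk population, so fewer cells of a type and less RNA per cell cannot be told apart.

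The nuclear lamina is a meshwork of intermediate filament proteins that lines the inner nuclear membrane, carries the shape and stiffness of the nucleus, and holds heterochromatin at the nuclear edge. A-type lamins come from *Lmna* by alternative splicing and B-type lamins from *Lmnb1* and *Lmnb2*. The lamin B receptor, emerin and the LAP2 proteins anchor lamins and chromatin in the membrane, and SUN proteins couple the lamina to the cytoskeleton. In blood formation, A-type lamins are known to be low in most blood cells and the lamin B receptor to shape the lobed granulocyte nucleus, while loss of lamin B1 is a known mark of senescent cells.

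Reads recovered from the normalized values numbered 0.861 to 5.12 M per mouse, where M stands for 1000000. The study text gives a larger number of sequenced reads, and the sources used here do not explain the difference. Depth here means the recovered reads. Mouse labels carry a final letter, A or B, whose meaning the sources used here do not give. Every library with letter A (2 young and 4 old mice, 0.861 to 3.11 M reads) was shallower than every library with letter B (3 young and 3 old mice, 3.23 to 5.12 M reads), so that letter and depth cannot be told apart. The defining markers of the sorted fraction were present in every mouse, with *Kit* at 546 to 2049, *Ly6a* (encoding Sca-1) at 35.5 to 193 and *Slamf1* (CD150) at 42.6 to 154 normalized read counts. *Cd48*, which the sort excludes, lay between 0.583 and 11.8 and was too low to be tested.

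To rank the genes against each other, the normalized read count was divided by the length of the exons of each gene in kb. *Lmna* was the lowest of the 8 genes in 12 of 12 mice, at 3.64 ± 1.52 per kb (SD, n = 12), and its range did not overlap that of the next gene, *Sun1* (12.3 ± 2.68). *Banf1* (38.1 ± 10.5), *Lbr* (35.1 ± 7.88), *Emd* (30.02 ± 6.39) and *Tmpo* (29.8 ± 8.31) stood at the top, and their ranges overlapped. *Banf1* exceeded *Lbr* in 7, *Lbr* exceeded *Emd* in 8 and *Emd* exceeded *Tmpo* in 6 of the 12 mice, so that their order was not larger than the spread between mice. *Lmnb1* (20.5 ± 6.29) lay below *Tmpo* in 11 and above *Lmnb2* (12.8 ± 2.64) in 11 of the 12 mice, and *Lmnb2* and *Sun1* could not be separated. When the length of the longest coding transcript was used, *Tmpo* moved to the top at 87.0 ± 24.2 per kb, and *Lmna* remained lowest at 6.74 ± 2.81. With that length *Sun1* (22.6 ± 4.93) stood above *Lmnb1* (21.4 ± 6.55) and *Lmnb2* (15.6 ± 3.21) by the mean. The order among the other genes thus depended on which length was used, and the last place of *Lmna* did not.

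**Figure D1:**
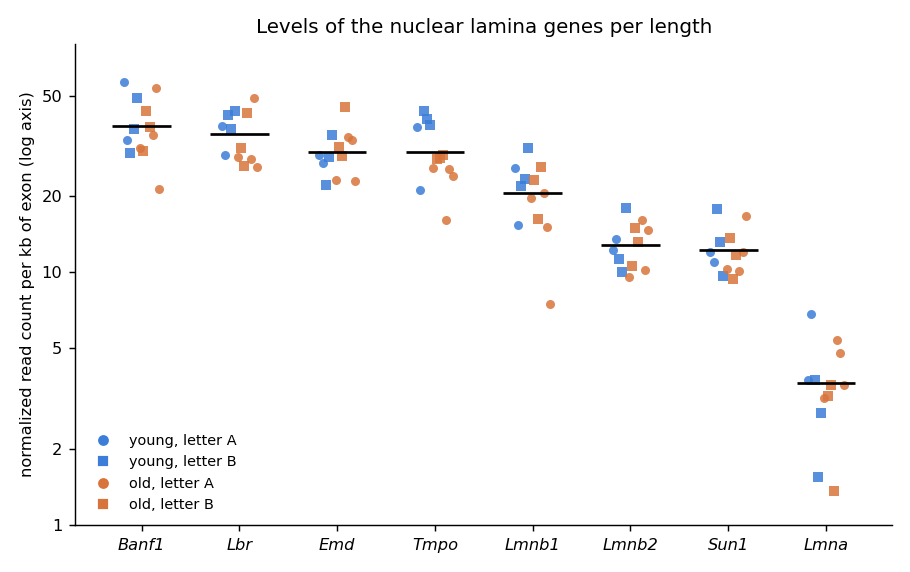
Normalized read count per kb of exon (log axis) of the 8 nuclear lamina genes in 12 mice. Each point is 1 mouse, colour gives the age and shape the label letter, and the bar is the mean over all mice. *Lmna*, with a mean of 3.64, lies below the other 7 genes in every mouse.

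Of the signal of the 3 lamin genes per kb, *Lmna* contributed 10.2% ± 4.66 (SD, n = 12). In young mice 1 to 5 the share was 8.91%, 19.1%, 10.1%, 4.41% and 5.34%, and in old mice it ran from 3.36% through a median of 10.3% to 15.8%. The ages overlapped over most of this range. The share was 8.91% to 19.1% in mice with letter A and 3.36% to 10.3% in mice with letter B. With the length of the longest coding transcript in place of that of the exons, the share over all mice was 15.7% ± 6.65 (SD, n = 12), from 5.53% to 28.0%. The level of *Lmnb1* was 2.09 to 19.1 times that of *Lmna* within a mouse per kb of exon, and 1.18 to 10.8 times per kb of coding transcript. These values hold at the gene level, where the reads of lamin A and lamin C are summed, as are those of the LAP2 isoforms of *Tmpo*.

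Among the lamins, *Lmna* (chr3:88480147-88509956, minus strand, GRCm38) had normalized read counts of 21.8, 39.9, 21.8, 9.03 and 16.2 in young mice 1 to 5. In old mice it ranged from 7.97 through a median of 20.9 to 31.6. The highest value was that of a young mouse with letter A and the lowest that of an old mouse with letter B, and both ages spanned most of the range. Means were 21.7 ± 11.4 (SD, n = 5) and 21.0 ± 7.51 (SD, n = 7), a log2 difference of 0.01 (standard error 0.38, limma adjusted p = 0.9997). The 95% interval of the fold, 0.578 to 1.74, bounds a difference of either sign. *Lmna* rested on 17 to 111 reads per mouse, the fewest of the 8 genes, and its coefficient of variation over all mice, 41.6%, was 2.86 times that of counting error alone.

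*Lmnb1* (chr18:56707813-56753424, plus strand), the B-type lamin whose loss marks senescent cells, had 76.8, 45.7, 64.8, 69.5 and 92.2 normalized read counts in young mice 1 to 5. In old mice it ranged from 22.1 through 58.3 to 77.4. Of the 7 old mice, 6 lay below the young median, while 2 lay below every young mouse, and the ages overlapped. The means of 69.8 ± 17.0 (SD, n = 5) and 54.4 ± 18.1 (SD, n = 7) gave a log2 difference of -0.40 (standard error 0.27, limma unadjusted p = 0.151, adjusted p = 0.9997). The lowest value came from old mouse 7, the shallowest library, in which *Lmnb1* had 18 reads, and without this mouse the log2 difference was -0.21. *Lmnb2* (chr10:80901203-80918245, minus strand), which encodes the other B-type lamin, was nearly level, with means of 55.7 ± 13.0 for the young (SD, n = 5) and 54.6 ± 11.05 for the old group (SD, n = 7). Its log2 difference was -0.02 (standard error 0.20) with a 95% interval of the fold from 0.732 to 1.32.

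*Lbr* (chr1:181815335-181843046, minus strand) encodes a membrane protein that binds B-type lamins and heterochromatin and also acts as a sterol reductase. It had 180, 138, 200, 176 and 208 normalized read counts in young mice 1 to 5, and 124 through 136 to 233 in old mice. Below every young mouse lay 4 of the 7 old mice, but old mouse 6 was the highest of all. The log2 difference was -0.22 (standard error 0.19, limma adjusted p = 0.9997). *Dnah14* on the opposite strand shares most of the 8.41% of the 50-base words of *Lbr* that occur in other genes.

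*Emd* (chrX:74254687-74261548, plus strand) encodes emerin, a membrane protein that binds lamins and BAF. It had 73.4, 67.8, 55.5, 72.0 and 87.5 normalized read counts in young mice and 57.8 through 78.4 to 113 in old mice. No old mouse lay below every young mouse, old mouse 4 was the highest of all, and the log2 difference was 0.12 (standard error 0.19, limma adjusted p = 0.9997). Because *Eif1* and 2 gene models, *Gm14686* and *Gm6900*, hold words of *Emd*, 16.2% of its words are shared. Its level is uncertain for this reason, to an extent that was not tested.

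*Banf1* (chr19:5364638-5367168, minus strand) encodes BAF, a small protein that bridges DNA and the LEM-domain proteins when the envelope forms again after mitosis. Its values were 84.6, 49.997, 44.1, 54.9 and 72.9 normalized read counts in young mice and 32.0 through 52.1 to 79.8 in old mice. The ages overlapped, and the log2 difference was -0.19 (standard error 0.23, limma adjusted p = 0.9997). With 25.5% of its words shared, nearly all of them with *Eif1ad* on the opposite strand, *Banf1* has the largest shared part of the 8 genes. *Sun1* (chr5:139200637-139249840, plus strand) encodes the inner membrane partner of the nesprins. It lay at 91.1, 83.2, 136, 99.7 and 73.2 in young mice and at 71.5 through 89.2 to 127 in old mice, with a log2 difference of -0.08 (standard error 0.19, limma adjusted p = 0.9997).

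*Tmpo* (chr10:91147571-91181315, minus strand), which encodes the LAP2 proteins, some of them anchored in the membrane and LAP2α free in the nucleoplasm as the partner of A-type lamin, had the largest age difference of the 8 genes. Its values were 413, 233, 477, 442 and 421 normalized read counts in young mice 1 to 5, and 284, 309, 312, 321, 177, 282 and 264 in old mice 1 to 7. All 7 old mice lay below 4 of the 5 young mice, and young mouse 2 lay among the old ones. The means of 397 ± 95.3 (SD, n = 5) and 279 ± 49.1 (SD, n = 7) gave a log2 difference of -0.49 (standard error 0.22) with a 95% interval of the fold from 0.517 to 0.978. The unadjusted p was 0.0372 and the adjusted p over all genes 0.9997 (limma), so that *Tmpo* did not pass the test. A two-sided exact permutation test gave p = 0.0379 over all 792 splits of the mice and p = 0.03 over the 300 exchanges within letters, before any correction for the 8 genes looked at.

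Within letter B, the deeper libraries, young mice had 477, 442 and 421 and old mice 309, 312 and 321 normalized read counts of *Tmpo*, without overlap. Of all genes tested, 12.9% did not overlap between the ages within letter B, and *Tmpo* was the only member among them. There the log2 difference was -0.51, with a standard error of 0.16 and a limma adjusted p of 0.173 (unadjusted 0.00317). Within letter A the 2 young mice (413 and 233) enclosed 3 of the 4 old mice, and the log2 difference was -0.32 (standard error 0.37, limma adjusted p = 0.9997). The age difference of *Tmpo* did not differ detectably between the letters, with an interaction of -0.18 (95% interval -0.99 to 0.63, limma adjusted p = 0.9998). Old mice 5 and 7, the shallowest libraries, held values in the lower part of the old group, and without both the log2 difference was -0.36 (standard error 0.18, limma adjusted p = 0.871).

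**Figure D2:**
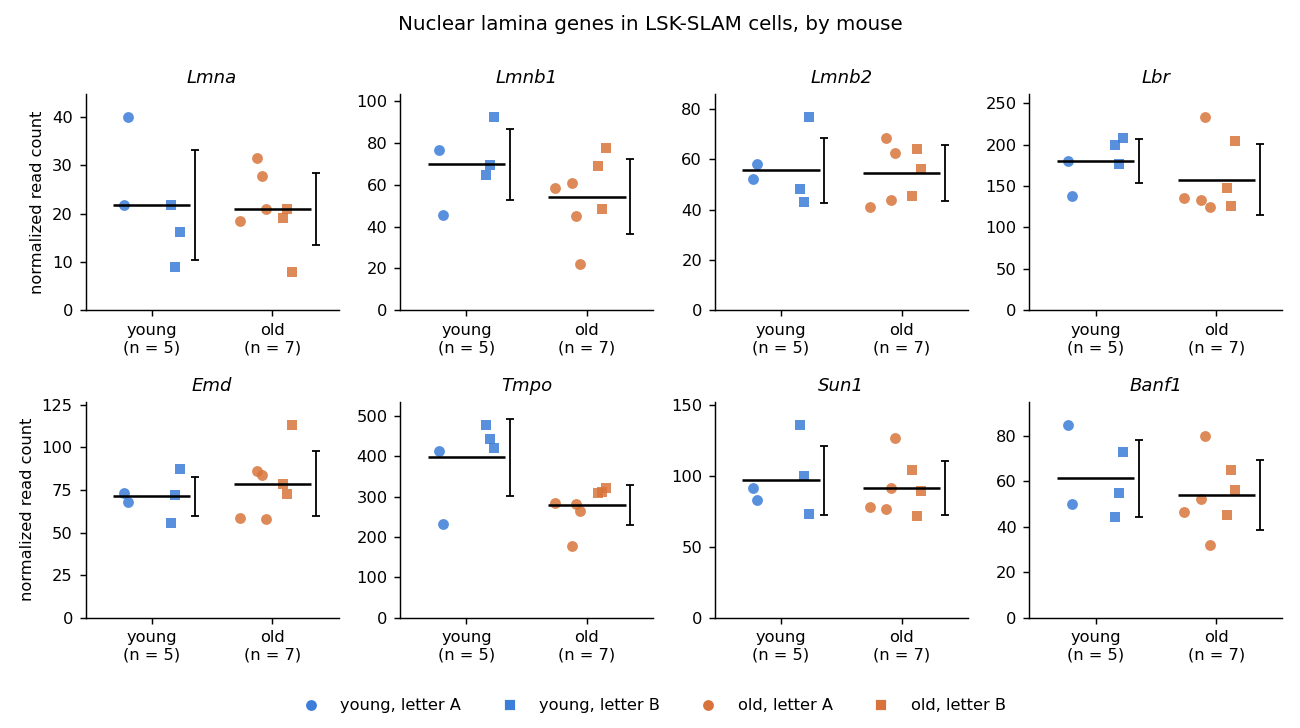
Normalized read counts of the 8 nuclear lamina genes by mouse. Each point is 1 mouse (circles letter A, squares letter B), the horizontal bar is the mean and the vertical bar the SD of 5 young or 7 old mice. *Tmpo* is the gene in which old mice (177 to 321) lie below 4 of the 5 young mice, and the ages overlap for all 8 genes.

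The promoter windows of *Tmpo*, picked for display because its age difference was the largest of the members, are shown as a description. Whether their letters bear on that difference was not tested. RefSeq gives 2 windows for *Tmpo*, each of 250 bases before and 50 bases after a transcription start (GRCm38.p6, minus strand), chr10:91171570-91171869 and chr10:91170501-91170800. In capitals are matches on either strand to the CCAAT box (CCAAT), the CHR element of genes of the late cell cycle (TTTGAA) and the E2F core (TTTCCCGC, TTTGGCGC, TTTCGCGC or TTTGCCGC).
Tmpo window 1: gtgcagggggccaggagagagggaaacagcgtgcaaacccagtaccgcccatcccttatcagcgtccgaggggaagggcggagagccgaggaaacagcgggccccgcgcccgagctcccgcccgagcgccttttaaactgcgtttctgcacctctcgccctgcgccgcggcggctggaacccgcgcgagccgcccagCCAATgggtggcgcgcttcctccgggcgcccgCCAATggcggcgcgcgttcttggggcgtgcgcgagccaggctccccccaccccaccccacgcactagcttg
Tmpo window 2: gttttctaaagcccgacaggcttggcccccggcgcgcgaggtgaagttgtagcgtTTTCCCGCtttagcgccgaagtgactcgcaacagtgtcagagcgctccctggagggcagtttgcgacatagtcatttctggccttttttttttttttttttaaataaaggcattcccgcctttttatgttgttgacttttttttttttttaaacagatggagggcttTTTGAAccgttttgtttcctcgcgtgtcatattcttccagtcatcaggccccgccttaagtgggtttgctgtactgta

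The first window held 2 CCAAT boxes and neither of the other motifs, and the second held 1 CHR element and 1 E2F core and no CCAAT box. Over the 12 windows of the 7 members given here, 7 windows held a CCAAT box, 2 a CHR element (*Lbr* and *Tmpo*) and 2 an E2F core (*Tmpo* and *Banf1*). Of all 32851 windows of this length, 37.4% held a CCAAT box, 17.9% a CHR element and 2.26% an E2F core. These matches describe letters and not binding.

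For the comparison of old with young LSK-SLAM cells as a whole, 0 of the 8 members had an adjusted p under 0.05 (limma with Benjamini-Hochberg adjustment), and edgeR and DESeq2 on the recovered reads also called 0. Of all genes tested, 0.105% were called. At an unadjusted p under 0.05 stood 1 member, *Tmpo*, against 3.95% of all genes. Lower on average in old mice were 6 of the 8 members, with a median log2 difference of -0.13, beside 52.3% of all genes and a median of -0.02. No member was free of overlap between the ages, as were 0.461% of all genes. With letter as a covariate the log2 differences were -0.42 for *Tmpo* (standard error 0.19, limma adjusted p = 0.865), -0.33 for *Lmnb1* and -0.13 for *Lmna*. The interaction of age and letter was called for 0 members and for 0.0162% of all genes. The sign of the difference for *Lmna*, *Lmnb2*, *Emd* and *Sun1* turned under some settings and is not a result.

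**Figure D3:**
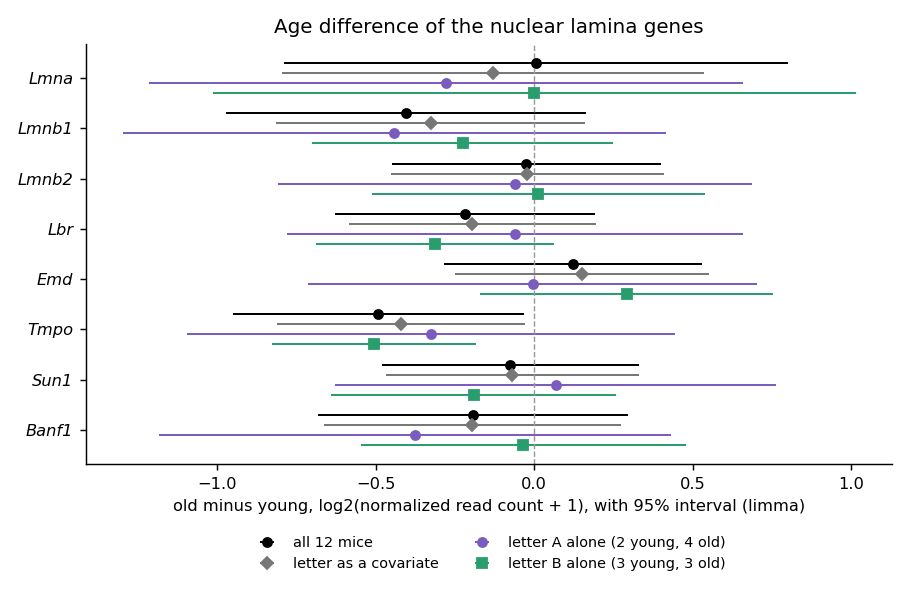
Age difference of each nuclear lamina gene, old minus young on the log2(normalized read count + 1) scale, with the 95% interval from limma. The 4 estimates per gene use all 12 mice, all mice with letter as a covariate, or the mice of either letter alone. The interval for *Tmpo* over all mice, below 0, is unadjusted, and its adjusted p was 0.9997.

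Between the letters, adjusted for age, 36.1% of all genes were called and 0 of the 8 members. With the reads of every library thinned to the number of the shallowest mouse, 30.8% of all genes and 0 members were called. *Lmna* was lower in mice with letter B, at 15.8 ± 5.98 normalized read counts (SD, n = 6) against 26.8 ± 8.05 (SD, n = 6) with letter A, a log2 difference of -0.79 (standard error 0.32, limma unadjusted p = 0.0201, adjusted p = 0.0541). *Lmnb1* and *Tmpo* were higher with letter B by 0.45 (standard error 0.23, limma adjusted p = 0.127) and 0.42 (standard error 0.19, limma adjusted p = 0.0805) on the log2 scale. Values of the letters overlapped for all 8 members, while 10.5% of all genes did not overlap. When the libraries were rescaled by median ratios, the median letter difference of all genes moved from -0.09 to 0.21, and *Lmnb1* (0.75, limma adjusted p = 0.0164) and *Tmpo* (0.72, limma adjusted p = 0.0160) were called. Under this scaling 47.7% of all genes were called, and 27.2% were called higher with letter B. Relative to the median letter difference of all genes, *Lmnb1* was at 0.54 and *Tmpo* at 0.51 under both scalings, and *Lmna* at -0.70 as deposited and -0.71 rescaled. Rescaling multiplies each library by 1 factor and shifts all genes nearly alike. Such agreement was fixed in advance and gives no support to these differences.

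Markers of other cells were compared between the letters as well. Called lower with letter B were 5 of 10 granulocyte and monocyte markers, 4 of 7 endothelial and stromal markers and 3 of 8 erythroid markers. So were 1 of 4 megakaryocyte markers and 2 of 3 B-cell markers tested, and 0 in these lists were called higher. Of all genes tested, 25.6% were called lower with letter B and 10.5% higher. By age, 0 markers of any other cell type were called over all mice, and within letter B *Mpo* (-2.16, limma adjusted p = 0.0464), named after its value was seen, and *Pf4* (-2.11, limma adjusted p = 0.0192) were lower in old mice on the log2 scale. The direction of the granulocyte and monocyte list was opposite in the other letter. Within letter A its median was 1.74, 0 of 10 markers were below 0, and the smallest limma adjusted p was 0.0584. There 9 had an unadjusted p under 0.05 upward, beside 2.57% of all genes in either direction. Within letter B the median of the list was -1.10, with 9 of 10 markers below 0. Of these 10, 6 had an unadjusted p under 0.05 (limma) downward and 1 upward, beside 8.05% of all genes in either direction. The summed levels of the markers were 303 to 802 in young and 297 to 3072 in old mice for granulocyte and monocyte markers, 128 to 254 and 86.0 to 779 for erythroid, 162 to 269 and 114 to 226 for megakaryocyte, 55.3 to 119 and 58.4 to 168 for B and plasma cell, 22.2 to 57.0 and 10.8 to 90.8 for T and NK cell, and 189 to 352 and 134 to 432 for endothelial and stromal markers. No marker was at 0 in every mouse, and *Cd3e*, *Ncr1* and *Acta2* reached 0 in old mice. Their part in the values of *Lmna* was not tested.

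Genes that work with the lamina were followed in lists. Of the lamin processing genes, 5 were tested and 0 called. *Zmpste24*, the protease that matures prelamin A, had a log2 difference of 0.11 (standard error 0.26) and *Icmt*, the methyltransferase that acts before it, -0.27 (standard error 0.20). *Fnta*, a farnesyltransferase subunit, was at -0.24 (standard error 0.19) and *Narf*, whose product binds prelamin A, at -0.11 (standard error 0.24). Among 13 tested genes of the LINC complex and inner nuclear membrane, 0 were called, and the nesprins *Syne1* (0.12, standard error 0.22) and *Syne2* (0.08, standard error 0.17) and the LEM-domain gene *Lemd3* (0.15, standard error 0.20) lay near 0 on the log2 scale. *Ankle2*, which promotes dephosphorylation of BAF at the end of mitosis, was at -0.29 (standard error 0.21), *Tmem201* at -0.23 (standard error 0.18) and *Nrm*, which encodes nurim, at -0.30 (standard error 0.27). The median of this list was -0.12.

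Of 13 tested chromatin partners of the lamina 0 were called, with a median of -0.11. *Prr14*, a tether of heterochromatin to the lamina, had 62.3 ± 11.6 normalized read counts in the young (SD, n = 5) and 44.4 ± 13.5 in the old group (SD, n = 7), a log2 difference of -0.52 (standard error 0.24, limma unadjusted p = 0.0438, adjusted p = 0.9997). *Cbx5*, which encodes the heterochromatin protein HP1α, stood at -0.32 (standard error 0.24) and the histone methyltransferase gene *Suv39h1* at -0.30 (standard error 0.22). Of 23 tested nuclear pore genes 0 were called, with a median of -0.07. *Nup88*, at 81.6 ± 12.8 (SD, n = 5) and 55.6 ± 12.2 (SD, n = 7), had the smallest unadjusted p of the 5 lists of lamina partners, 0.00813, with a log2 difference of -0.56 (standard error 0.19, limma adjusted p = 0.780), and within the nuclear pore list it was followed by *Nup37* (-0.57, standard error 0.31) and *Nup62* (-0.39, standard error 0.24). Of 6 tested genes of the ESCRT machinery, which reseals the envelope, 0 were called and all 6 were below 0, with a median of -0.17 and with *Chmp2a* (-0.29, standard error 0.18), *Chmp4b* (-0.29, standard error 0.28) and *Vps4a* (-0.21, standard error 0.24) in front. Without old mice 5 and 7, the 2 shallowest, 3 of the 6 were below 0 with a median of -0.03, and within letter B 3 of the 6 with a median of -0.01. Leaving out the same mice moved the medians of the LINC and nuclear pore lists to 0.04 and 0.06.

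**Figure D4:**
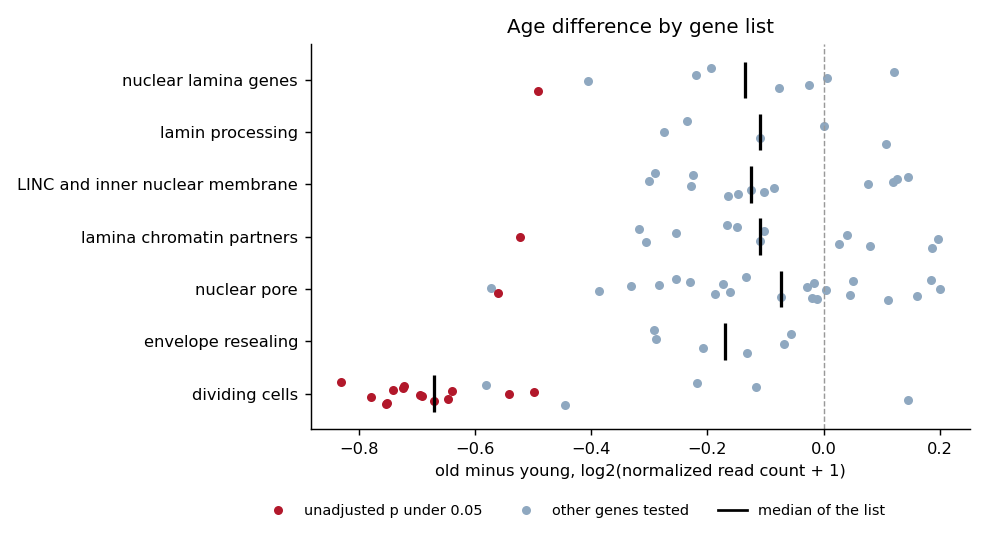
Age difference, old minus young on the log2(normalized read count + 1) scale, of each tested gene in the nuclear lamina genes and 6 related lists. Points are genes, red for an unadjusted p under 0.05 (limma), and the bar is the median of a list. The list of dividing cells has a median of -0.67, and the other lists have medians from -0.17 to -0.07.

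The lamina is taken apart and rebuilt at each division, and genes of dividing cells were therefore set beside the members. Of 19 such genes tested, 0 were called, 14 had an unadjusted p under 0.05 and a lower mean in old mice, and the median log2 difference was -0.67. *Mki67*, a marker of cells in cycle, had 702 ± 199.9 normalized read counts in the young (SD, n = 5) and 420.4 ± 171 in the old group (SD, n = 7), a log2 difference of -0.78 (standard error 0.29, limma adjusted p = 0.946). For *Top2a* the log2 difference was -0.75 (standard error 0.23, limma adjusted p = 0.642), and for the replication helicase genes *Mcm2* and *Mcm6* it was -0.64 and -0.69. Within letter B alone, where 0.809% of all genes were called, 5 of the 19 genes were called lower (*Mki67*, *Top2a*, *Mcm6*, *Ccna2* and *Tyms*), with log2 differences of -0.83, -0.95, -0.64, -1.26 and -1.23 (limma adjusted p = 0.0115, 0.00841, 0.0455, 0.000747 and 0.0395), while 0 of the 8 members were called. The median of the list was -0.85 within letter B, with 17 of the 19 at an unadjusted p under 0.05, and -0.37 within letter A, with 0 of the 19. Of all genes, 8.05% had such a p within letter B and 2.57% within letter A, in either direction. *Ccna2* and *Tyms* were named here after their values had been seen. Without old mice 5 and 7, 13 of the 19 had an unadjusted p under 0.05, beside 6.14% of all genes. There 0 of the 19 were called, with a median of -0.57. The summed level of the list was 1779 to 3242 in young and 1308 to 2162 in old mice. Its part in the age difference of *Tmpo* was not tested.

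The mean log2 level over these 19 genes was 6.35 ± 0.29 in the young (SD, n = 5) and 5.78 ± 0.21 in the old group (SD, n = 7). Young mouse 2, the young mouse with the low *Tmpo* value, also had the lowest such mean of the young mice, 5.92, while old mouse 5, lowest in *Tmpo*, stood at 5.79 within the old group. Within letter A, *Tmpo* followed this mean with r = 0.782 (exact permutation p = 0.0833, rho = 0.600, exact permutation p = 0.242, n = 6). This rested on 2 mice, since r was 0.019 without the 2 mice farthest from the median. Once each age mean was removed, r within letter A was 0.73 (n = 6, a description). Within letter B the ages formed separate clusters, with old mice at 5.43 to 5.95 and young mice at 6.34 to 6.74, so that a pooled r does not describe a relation within an age, and for *Tmpo* r was -0.51 once each age mean was removed (n = 6, a description). Over all 16 relations computed, for 8 members in 2 letters, 0 passed adjustment, and the smallest Benjamini-Hochberg p was 0.222, for *Banf1* within letter A (r = 0.874, exact permutation p = 0.0139, and 0.659 without the 2 farthest mice).

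**Figure D5:**
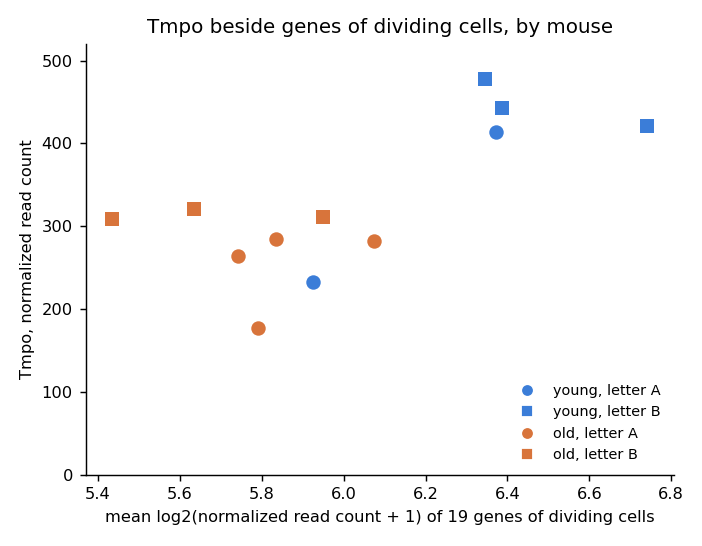
Normalized read count of *Tmpo* against the mean log2(normalized read count + 1) of 19 genes of dividing cells. Each point is 1 mouse, colour gives the age and shape the label letter. The 4 young mice above 400 on the vertical axis have means of at least 6.34, and the remaining young mouse (233, 5.92) lies among the old mice.

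*Cd34* and *Flt3*, which mark progenitors beyond the most primitive HSCs and were not used to sort these cells, had lower means in old mice. In their list of HSC and progenitor markers, 5 of 9 tested genes were below 0 and 0 were called. The median log2 difference of the list was -0.21, and *Slamf1* (0.42) and *Procr* (0.36) were among those above 0. *Cd34* was at 182 ± 53.0 normalized read counts in the young (SD, n = 5) and 84.5 ± 10.4 in the old group (SD, n = 7), a log2 difference of -1.04 (standard error 0.20, limma adjusted p = 0.0544, and 0.00856 with letter as a covariate). *Flt3* was at 54.1 ± 13.6 (SD, n = 5) and 30.8 ± 13.0 (SD, n = 7), a log2 difference of -0.87 (standard error 0.29, limma adjusted p = 0.780). In mice with letter B, where 0.809% of all genes were called, *Cd34* (-1.10, limma adjusted p = 0.000808) was called lower in old mice on the log2 scale. There *Slamf1* (0.88, limma adjusted p = 0.0235) was called higher. Their part in the values of *Tmpo* was not tested.

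After the mean of each combination of age and letter had been removed, correlations among the members across the 12 mice had both signs. Over their 28 pairs the median r was -0.003, between -0.59 and 0.63, and 14 pairs were above 0, beside a median of 0.011 over pairs of 1236 genes taken at a fixed step from all genes tested. The highest values joined *Lbr* with *Banf1* (r = 0.63), *Lbr* with *Emd* (r = 0.61) and *Emd* with *Banf1* (r = 0.61), and the lowest *Sun1* with *Banf1* (r = -0.59). The lamins were not close to each other, with r = -0.21 for *Lmna* and *Lmnb1*, -0.12 for *Lmnb1* and *Lmnb2* and 0.27 for *Lmna* and *Lmnb2*. Of all genes tested, *Extl2* (r = 0.969), *Wdr4* (r = 0.956) and *Lrrtm2* (r = 0.953) were most like *Lmna*. Most like *Lmnb1* were *Taf10* (r = 0.961), *Spr* (r = 0.943) and *Mt1* (r = 0.935), and most like *Lmnb2* were *Sag* (r = 0.966), *B230118H07Rik* (r = 0.947) and *Olfm3* (r = 0.946). These are the highest values among all genes tested for each lamin and share libraries and depth, so they are given as a description.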

How the data were processed

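RNA of 15000 sorted cells per mouse was depleted of ribosomal RNA, and 300 pg entered the TotalScript kit before sequencing. The submitters' processing notes name FastQC 0.11.8, STAR 2.5.4b, edgeR 3.24.3 and mm10. The counting tool, its annotation and its strand setting are not given in the sources used here. The authors deposited, for 18762 genes, a normalized signal, in which the reads of a gene are divided by a scaled library size and given per 1000000. Divided by the value of a single read in its library, 100% of the values came out whole (tolerance 0.01), and these whole reads were used for count tests. The labels list 24 samples, 2 runs for each of the 12 mice, with 1 column of values a mouse. A table of the authors' own comparison (log2 fold changes, log2 CPM and p-values) was not used.

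The age test was run in limma 3.58.1 (R 4.3.3) with a mean-variance trend in eBayes, on log2(value + 1), for genes with a mean of at least 10, with Benjamini-Hochberg adjustment over all 12354 genes. Fold changes on this scale understate those of low genes. A gene was called at an adjusted p under 0.05. The design assumed normalized values and was kept once reads had been recovered. The letter test had age as the other term. Count tests used edgeR 4.0.16 (quasi-likelihood) and DESeq2 1.42.0. For single genes the two-sided exact permutation test was added. Procedures were tested on simulated data. Intervals cover the spread between mice, and errors from read numbers cover counting only. Tables and figures were made in Python 3.11.15 with pandas 2.3.3, numpy 2.4.6, scipy 1.17.1 and matplotlib 3.10.9.

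The members and lists were chosen with earlier results of these data known. Named genes were every member with a row, the genes of each list called by age or otherwise the 3 with the smallest unadjusted p, the 3 genes most correlated with each lamin, and *Zmpste24*, *Syne1*, *Syne2*, *Lemd3* and *Mki67*. The genes *Cd34* and *Flt3* come from the list of HSC and progenitor markers by the same rule. Gene positions, exon lengths and 50-base words came from GENCODE vM21 (GRCm38), which held 18745 of the gene identifiers, and promoters from RefSeq, which matched 7 members. A promoter of *Lmnb1* was not used here.

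As alternatives, the pseudocount was raised to 5, the minimum mean set to 1, 30 or none, the trend dropped, letter entered as a covariate, each letter tested alone, a replicate block used, libraries rescaled by median ratios, reads thinned to the shallowest mouse, count models fitted, and single mice left out in turn. Replicates 1 to 5 without the block, edgeR with letter as a covariate, and leaving out old mice 5 and 7 together were added after the data were seen.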

Additional observations from a re-analysis of the deposited data

Results flagged for a closer look

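The value of *Tmpo* in 2 mice stood apart from the others of its age. In young mouse 2 it was 233 normalized read counts, while the other 4 young mice lay between 413 and 477, and the gap to the nearest mouse was 0.739 of the range, against a critical value of 0.710. In old mouse 5 it was 177, while the other 6 old mice lay between 264 and 321, and the gap was 0.606 of the range, against a critical value of 0.568. *Tmpo* had 484 and 224 reads in these libraries, so that counting error alone was 4.55% and 6.68% of the value. Both mice carry letter A. In all, 16 groups were looked at, 8 genes in 2 ages, and chance alone is expected to mark 0.8 of them. Without young mouse 2 the log2 age difference of *Tmpo* was -0.67 (limma unadjusted p = 0.00432, adjusted p = 0.486), and without old mouse 5 it was -0.39 (limma unadjusted p = 0.0519, adjusted p = 0.9997).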

How the results depend on the processing

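No member was called by age under any of 27 alternatives, and *Tmpo*, *Lmnb1*, *Lbr* and *Banf1* were below 0 in all of them. *Tmpo* ran from -0.67 to -0.33 (adjusted p of 0.173 or more with limma, edgeR and DESeq2) and had an unadjusted p under 0.05 in 15. Genes called by age, 13 in the main comparison, numbered 22 at a minimum mean of 30 (*Lmna* then not tested), 2 without trend, 37 with letter as a covariate, 1 within letter A, 100 within letter B, 5 after rescaling by median ratios, 57 with DESeq2, 43 with edgeR and letter as a covariate, and 49 without old mice 5 and 7. They ran from 3 to 32 when single mice were left out, with 32 without old mouse 5 and 3 without young mouse 3 or 4 or without old mouse 1, 2 or 3.

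The sign of *Lmna*, 0.01 by age, turned at pseudocount 5 (-0.00074), with letter as a covariate (-0.13), within letter A (-0.28), after rescaling (-0.035), with edgeR (-0.054), DESeq2 (-0.055) or edgeR and letter as a covariate (-0.14), and without the 2 shallowest mice (-0.14). It ran from -0.25 to 0.25 when single mice were left out. *Lmnb2* was 0.013 within letter B and -0.11 to 0.096 when single mice were left out, *Emd* was -0.0054 within letter A, and *Sun1* was 0.068 within letter A and -0.17 to 0.053 when single mice were left out. By letter, 2 members, *Lmnb1* and *Tmpo*, were called after rescaling, beside 47.7% of all genes. *Banf1*, -0.0089 by letter, was 0.024 without the age term, 0.29 after rescaling and 0.023 with thinned reads, where *Lmnb2* was -0.0047 and *Sun1* -0.065.

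Young and old mice with the same replicate number are different animals. With the age means removed, the mean r of their deviations was 0.136 (from -0.56 to 0.61), against -0.02 for other numbers. Of 5 young mice, 2 were closest to their own number. The letter was not removed, and only some same-number mice share it, so this check cannot separate pairing from letter. With a replicate block over replicates 1 to 5, 19 genes and 0 members were called and *Lmna* was -0.11, and without the block on the same mice 8 genes were called and *Lmna* was -0.11. Depth limits *Lmna* most, with 17 reads in the shallowest library.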
